A study of Mus musculus with 27 samples.

Results

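Glycogen is the branched glucose store of skeletal muscle, and 9 genes of its synthesis and breakdown were followed here in single myofibers of the tibialis anterior, a fast muscle of the lower leg. The members were Pygm, Phka1, Phkb, Phkg1, Gys1, Gbe1, Ugp2, Ppp1r3a and Ppp1r3c, taken by gene name from the arrays, and they were carried by 14 of the 55681 probes. All 14 probes had a value on all 27 arrays and none was saturated, so no member was lost to a filter on low values.

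Muscle glycogen is built from UDP-glucose, which Ugp2 makes, by glycogen synthase (Gys1) and the branching enzyme (Gbe1). It is broken down by the muscle glycogen phosphorylase, Pygm, which phosphorylase kinase switches on. That kinase is built of the alpha subunit Phka1, the beta subunit Phkb and the catalytic gamma subunit Phkg1, among others, and it answers to calcium and to protein kinase A. Ppp1r3a and Ppp1r3c hold protein phosphatase 1 on the glycogen particle, where it activates the synthase and turns the phosphorylase off. Loss of Pygm is known as McArdle disease, a cause of exercise intolerance.

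The series held 8 WT myofibers from 2 mice, 12 Smn1deltaSKM myofibers from 3 mice and 7 Smn1deltaSKM+AFS myofibers from 2 mice, each on its own 1-colour array. All mice were male and labelled as 3 months old. Smn1deltaSKM mice carry a Smn allele with a floxed exon that is deleted by a Cre recombinase under the human skeletal actin promoter, so the loss is meant for myofibers only, and Smn1deltaSKM+AFS mice are the same mutants after mouse amniotic fluid stem cells were given by the tail vein. The methods name GFP-positive C57BL/6 mice in the isolation of the myofibers while the controls are elsewhere called littermates, and neither the age of the treated mice at collection nor the number of treated myofibers and mice is settled by the sources, so the numbers here are those of the labels. The fibers of a mouse share that mouse, so groups were compared over mice.

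Between 23183 and 37595 probes had a value on an array, with medians of 25156 in WT, 31433.5 in Smn1deltaSKM and 27431 in Smn1deltaSKM+AFS arrays, and the part of this in the group differences was not tested. Levels are log2 signals relative to the 75th percentile of their own array, so they say how a transcript stood among the others of the fiber and not how much RNA a fiber held. One Smn1 probe fell by 1.68 in Smn1deltaSKM mice (limma, adjusted p = 0.0201) and the other differed by 0.19 (adjusted p = 0.715), and where either lies relative to the floxed exon was not determined here. Of the fast fiber markers, 9 of 12 had a value on every WT array and the type 2B myosin Myh4 lay between 6.01 and 7.94 on all 27 arrays. Of other cells, Calcr and Pax7 of satellite cells had a value on 0 and 3 arrays and Pdgfra of fibroblasts on 1. Other markers of these cells were measured, Myf5 on 7 of 8 WT, 11 of 12 Smn1deltaSKM and 7 of 7 Smn1deltaSKM+AFS arrays, Col3a1 on 6, 11 and 6, Col1a1 on 2, 9 and 5 and Dcn on 1, 12 and 5. The 8 WT arrays shared 1 slide and 1 scan day that held no other group, so slide, scan day and genotype cannot be told apart in any comparison with WT.

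A few probe sequences carry results given further on and are shown here, 5′ to 3′ as the array holds them, with their positions on mm9, the build of the files. The probes of a pair lay far apart for Gbe1 and overlapped for Phkg1. The capitals in the Pygm stretch, chr19:6398419-6398448 on the plus strand, mark AATAAA, the letters of the common polyadenylation signal, which 3 of the 14 member probes and 10.1% of all 55681 probes hold. The Phkb probe starts at base 2640 of its transcript, chr8:88553459-88553518 on the plus strand, and has no part in capitals. The capitals in the internal Gbe1 probe, chr16:70361227-70361286 on the plus strand, mark GTAAGT, letters that often open an intron, which 0.959% of all probes hold and no other member probe does. It was designed on a transcript record other than the reference one and lies 208613 bases before the Gbe1 probe at base 2724. The 2 Phkg1 stretches both cover chr5:130340063-130340092 on the minus strand. Their probes share 53 bases and differ by A8C, counted from 1 at the 5′ end of the probe at base 1578, and the capital marks that base.
Pygm probe at base 2773, last 30 bases: cacccactccccAATAAAtcgactcttcct
Phkb probe at base 2640: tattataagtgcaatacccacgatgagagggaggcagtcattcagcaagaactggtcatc
Gbe1 internal probe: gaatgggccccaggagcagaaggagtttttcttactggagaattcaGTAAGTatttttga
Phkg1 probe at base 1571, from its base 8: gcccgggAagtctagtgatgcttatttcaa
Phkg1 probe at base 1578, first 30 bases: gcccgggCagtctagtgatgcttatttcaa

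The remaining probes lay at chrX:99710704-99710763 for Phka1, chr8:88583860-88583919 for the Phkb probe at base 3935, chr7:52711790-52711849 and chr7:52711158-52711217 for Gys1, chr16:70569840-70569899 for the Gbe1 probe at base 2724, chr11:21221281-21221340 and chr11:21221975-21222034 for Ugp2, chr6:14664312-14664371 for Ppp1r3a and chr19:36806457-36806516 for Ppp1r3c. No mm9 annotation was used here, so exons were not assigned.

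The promoters of Pygm, Gys1 and Ppp1r3a are shown because these members stood for breakdown, synthesis and its control and all were lower in the mutant. The RefSeq start sites matched all 9 members with 10 windows, Ugp2 having a pair of starts. The stretches hold the 250 bases before the start on GRCm38.p6, at chr19:6384158-6384407 on the plus strand, chr7:45434589-45434838 on the plus strand and chr6:14755275-14755524 on the minus strand. Capitals mark CAGCTG, a form of the E-box that myogenic factors such as MyoD bind, and CTA and TAG around any 4 bases. The second pattern is looser than the MEF2 site, in which the 4 middle bases are A or T. Both patterns read the same on either strand, and they were chosen after the sequences were seen.
Pygm promoter: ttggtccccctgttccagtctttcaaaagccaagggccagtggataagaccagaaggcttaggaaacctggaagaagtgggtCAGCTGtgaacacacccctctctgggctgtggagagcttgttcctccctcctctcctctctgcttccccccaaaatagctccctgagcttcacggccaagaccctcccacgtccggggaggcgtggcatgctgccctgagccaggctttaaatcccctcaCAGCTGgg
Gys1 promoter: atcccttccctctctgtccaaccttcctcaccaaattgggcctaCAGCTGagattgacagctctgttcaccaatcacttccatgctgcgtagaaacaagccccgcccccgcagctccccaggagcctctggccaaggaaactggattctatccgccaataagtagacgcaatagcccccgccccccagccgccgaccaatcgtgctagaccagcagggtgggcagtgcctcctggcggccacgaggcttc
Ppp1r3a promoter: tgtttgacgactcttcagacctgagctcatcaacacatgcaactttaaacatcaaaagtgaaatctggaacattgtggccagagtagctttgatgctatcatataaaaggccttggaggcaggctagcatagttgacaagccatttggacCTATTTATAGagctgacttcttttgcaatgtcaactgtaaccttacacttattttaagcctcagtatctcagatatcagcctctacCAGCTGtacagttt

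CAGCTG stood in 6 of the 10 member windows, of Pygm, Gys1, Ppp1r3a, Ppp1r3c, Phka1 and Ugp2, and in 13% of the 32851 RefSeq windows of this length. The MEF2 letters stood in the windows of Ppp1r3a and Phka1 and in 3.2% of all windows. The matches of the 2 motifs do not overlap, and a match is a run of letters and not a site.

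The first comparison asked how the glycogen genes of the myofiber stood after loss of Smn1. In Smn1deltaSKM mice Pygm fell to 32.1% of the WT level, Phka1 to 33.3% and Ppp1r3a to 27.8%, and 1 of 2 probes each fell for Phkg1 (to 24.9%), Gys1 (to 36.8%) and Phkb (to 39.0%). Of the 14 member probes, 13 lay below 0 and 6 fell (limma, adjusted p under 0.05), 1 each of Pygm, Phka1, Phkb, Phkg1, Gys1 and Ppp1r3a, and none rose. For Phkb, Phkg1 and Gys1 the called probe was the dimmer of the 2. Read by the brightest probe of each gene, 3 of the 9 members were called, against 13.5% of 16693 genes called lower. Over all 22169 probes tested, 14.1% were called lower and 7.33% higher, 21.5% in all. The members' median difference was -1.35 against -0.14 over all probes, and -0.43 over the 5340 probes at least as bright as the dimmest member, of which 16.9% were called lower. Below 0 lay 55.6% of all probes and 70.4% of these bright ones. The members were chosen with earlier results of these data known, so these shares are a description and not a test of the set. The plot shows all values by myofiber.

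**Figure D1:**
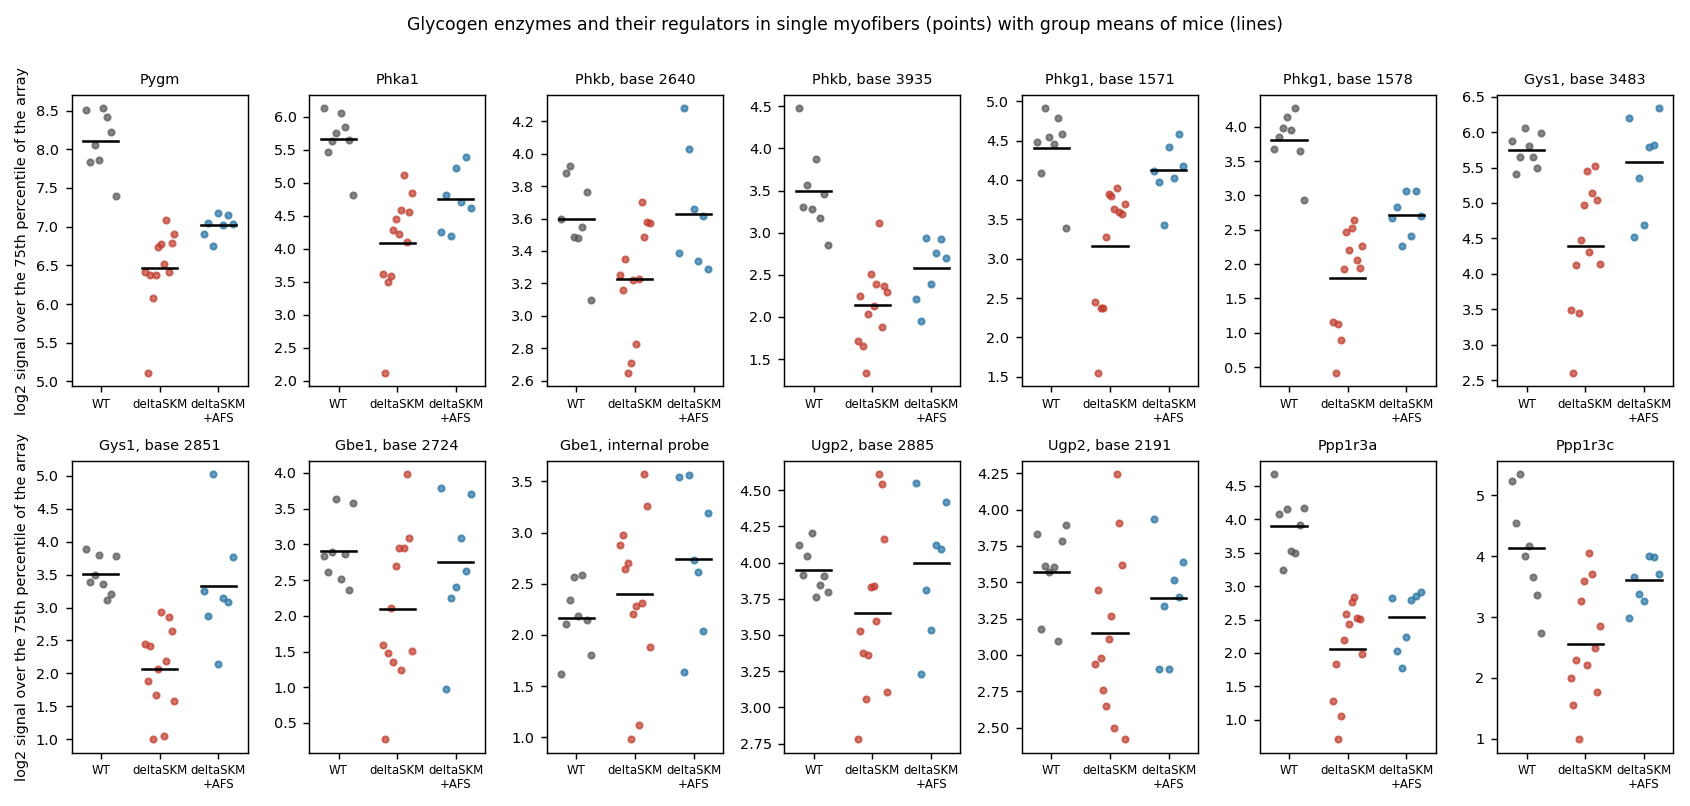
Log2 signal relative to the 75th percentile of the array (y axis) for each of the 14 member probes in WT, Smn1deltaSKM and Smn1deltaSKM+AFS myofibers (x axis), with points for the 8, 12 and 7 myofibers and lines for the mean of the mouse means. For Pygm, the 12 Smn1deltaSKM myofibers (5.11 to 7.09) and the 7 Smn1deltaSKM+AFS myofibers (6.75 to 7.18) all sit below the lowest WT myofiber at 7.39.

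Pygm, the phosphorylase that releases glucose-1-phosphate from glycogen, was read by a single probe. Its level in WT myofibers was 7.39 at the lowest, 8.14 at the median and 8.53 at the highest, and in Smn1deltaSKM myofibers 5.11, 6.47 and 7.09. The groups did not overlap, all 12 mutant myofibers lying below the lowest WT myofiber. For this and the later counts of myofibers the share over all probes was not determined. Over mice, all 3 mutant mice lay below both WT mice for 33.9% of 22000 probes. By mouse the WT mean was 8.11 ± 0.054 (SD, n = 2 mice) and the Smn1deltaSKM mean 6.47 ± 0.42 (SD, n = 3 mice). The difference was -1.64 ± 0.309 (SE) by limma (adjusted p = 0.0138).

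The subunits of phosphorylase kinase were each lower by at least 1 probe, and by the brightest probe of each gene 1 of the 3 was called. Phka1, the regulatory alpha subunit of muscle, lay at 4.82, 5.70 and 6.13 (lowest, median, highest) in WT myofibers and at 2.12, 4.26 and 5.12 in Smn1deltaSKM myofibers, a difference of -1.58 ± 0.428 (SE) by limma (adjusted p = 0.0352). Of its mutant myofibers, 10 of 12 lay below the lowest WT myofiber. Phkg1, the catalytic subunit, lay by its probe at base 1578 at 2.93, 3.91 and 4.27 in WT and at 0.41, 2.00 and 2.64 in Smn1deltaSKM myofibers. The groups did not overlap and the difference was -2.01 ± 0.427 (SE) by limma (adjusted p = 0.0186). The Phkg1 probe at base 1571 differed by -1.24 (limma, adjusted p = 0.0828), and 5 of 12 mutant myofibers lay below the lowest WT one. Phkb, the beta subunit, fell by 1.36 at base 3935 (standard error 0.313, limma, adjusted p = 0.0227), with 11 of 12 mutant myofibers below all WT ones. At base 2640, the internal stretch shown above, Phkb differed by -0.37 (limma, adjusted p = 0.392), and 3 of 12 did so.

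Pairs of probes of 1 gene were compared by permuting mice, which with 2 against 3 mice cannot give a p below 0.1. Over 5 such pairs the mutant difference at the later Phkb probe was 0.99 further below 0 than at the earlier one (exact permutation, two-sided, p = 0.1, adjusted over the 5 pairs p = 0.25), and at the later Phkg1 probe 0.77 further (exact p = 0.1, adjusted p = 0.25). The Gys1 probes differed by 0.10 (exact p = 1, adjusted p = 1), the Ugp2 probes by 0.12 (exact p = 0.7, adjusted p = 0.875) and the Gbe1 probes by -1.04 (exact p = 0.3, adjusted p = 0.5). Over the 1146 reference transcripts with tested probes at least 500 bases apart, the later probe stood 0.29 below the earlier one at the median, with quartiles of -0.95 and 0.30. Of these transcripts 61.9% lay below 0. This shift shares the WT slide and scan day with every comparison to WT, and its part in the members' differences was not tested.

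Among the 6 probes of the synthesis enzymes 1 was called, and it was a Gys1 probe. Gys1, the synthase itself, lay by its probe at base 2851 at 3.11, 3.44 and 3.89 in WT myofibers and at 1.00, 2.12 and 2.94 in Smn1deltaSKM myofibers. No mutant myofiber reached the lowest WT one, and the difference was -1.44 ± 0.270 (SE) by limma (adjusted p = 0.0138). Its probe at base 3483 differed by -1.35 ± 0.484 (SE) by limma (adjusted p = 0.0777), the 3 mutant mice lying at 3.42, 4.80 and 4.96 against 5.75 and 5.74 in WT. Of the mutant myofibers, 10 of 12 lay below the lowest WT one. Gbe1, the branching enzyme, lay at base 2724 at 2.36, 2.85 and 3.63 in WT and spread from 0.27 to 3.98 around a median of 1.85 in Smn1deltaSKM myofibers. It differed by -0.81 at base 2724 (limma, adjusted p = 0.220) and by 0.23 at the internal probe (adjusted p = 0.680), the one member probe above 0. Ugp2, which makes the sugar donor, differed by -0.30 and -0.42 (limma, adjusted p = 0.539 and 0.322), with 95% intervals from -1.07 to 0.47 and from -1.09 to 0.25. Mutant Gbe1 and Ugp2 levels ran both above and below the WT range, Ugp2 at base 2885 from 2.78 to 4.61 against 3.76 to 4.20 in WT.

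Both glycogen-targeting subunits of protein phosphatase 1 had lower means. Ppp1r3a, the main such subunit of muscle, lay at 3.24, 3.99 and 4.67 in WT and at 0.71, 2.31 and 2.84 in Smn1deltaSKM myofibers. The groups did not overlap, and the difference was -1.85 ± 0.432 (SE) by limma (adjusted p = 0.0236). Ppp1r3c differed by -1.57 ± 0.533 (SE) by limma (adjusted p = 0.0665). Its WT mice themselves lay at 4.78 and 3.48, and 7 of 12 mutant myofibers were below the lowest WT one.

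For 10 of the 14 probes all 3 Smn1deltaSKM mice lay below both WT mice, as they did for 33.9% of the 22000 probes with a value in every mouse. The calls rested on both WT mice, since without WT mouse 1 or WT mouse 2 no member probe and none of the 22169 probes was called, the members' medians then being -1.17 and -1.44. By limma 4635 and 5965 probes then had an unadjusted p under 0.05. Smn1deltaSKM mouse 1, of which myofibers 1 to 3 lay on a slide and scan day without the other Smn1deltaSKM myofibers, was the lowest mouse for 10 of the 14 probes. Without those 3 myofibers 6 member probes were called, the same 6, with a median difference of -1.40, as were 6252 of the 22169 probes. Without the whole mouse 8 member probes were called with a median of -1.0, as were 9711 of the 22169 probes. With each array centred on its median in place of the 75th percentile, 5 member probes and 3991 of the 22169 probes were called. The median over all probes moved from -0.14 to 0.08 and the share of lower among all called probes from 65.8% to 45.0%. Under quantile normalization, with or without a normexp background correction, and in the authors' value table, only Phkg1 at base 1578 and Gys1 at base 2851 stayed called.

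**Figure D2:**
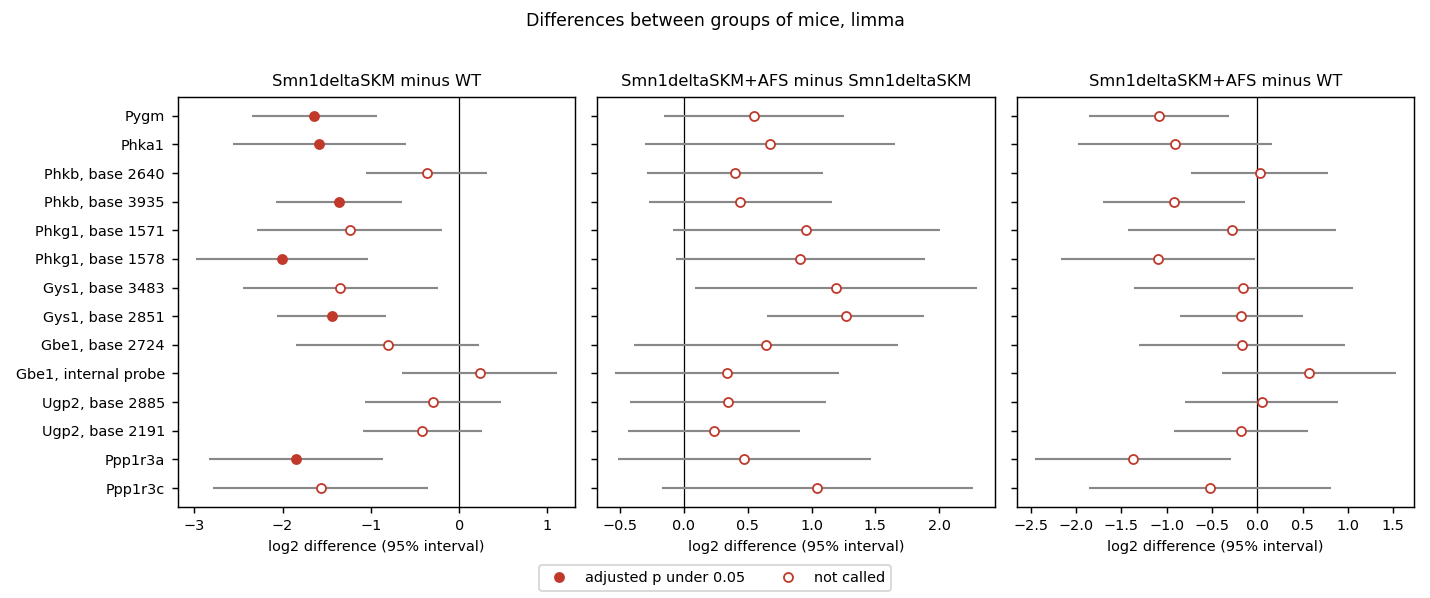
Log2 differences (x axis) of the 14 member probes (y axis) between groups of mice, with 95% intervals from limma as lines and filled points for an adjusted p under 0.05. In the left panel (Smn1deltaSKM minus WT) 6 points are filled, all below 0, and in the middle panel (Smn1deltaSKM+AFS minus Smn1deltaSKM) all 14 points lie above 0 with none filled.

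Genes around the members were read from lists of the pathway, each by its brightest probe. The lists were chosen with earlier results of these data known, so their shares are a description and not a test. Of 36 such genes 29 were tested, 25 lay below 0, 11 fell and 1 rose, against 13.5% of 16693 genes called lower and 7.81% called higher. Of all probes 55.6% lay below 0, and of the bright ones 70.4%. All 3 tested genes of the other synthesis list fell. Gyg (glycogenin, the protein primer of the particle) fell by 1.71 (limma, adjusted p = 0.0165), Pgm1 (phosphoglucomutase, which joins glycogen to glucose-6-phosphate) by 0.86 (adjusted p = 0.0419) and Pgm2l1 by 1.93 (adjusted p = 0.0292). Gys2, the liver synthase, and Pgm2 had too few values for a test.

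Of 8 other breakdown genes tested all lay below 0 and 3 fell. Among them were Gaa (the lysosomal glucosidase of Pompe disease, -1.36, limma, adjusted p = 0.0279) and Phka2 (the liver alpha subunit, -1.67, adjusted p = 0.0170). Pygl, the liver phosphorylase, had too few values.

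Of the phosphatase genes, the catalytic subunits Ppp1ca and Ppp1cb fell by 1.15 and 1.47 (limma, adjusted p = 0.0263 and 0.0255), the second tested Ppp1cb probe not being called. Ppp1r3b, a targeting subunit best known from liver, had a difference of 0.72 the other way (limma, adjusted p = 0.10). Ppp1r3d, Ppp1r3e, Ppp1r3f and Ppp1r3g had too few values. None of the 4 genes of the laforin, malin and glycophagy list was called, with Epm2aip1 at -0.73, Stbd1 (a glycogen-binding protein) at -0.68 and Epm2a (laforin) at -0.67 (limma, adjusted p = 0.193, 0.225 and 0.278).

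Upstream kinases held the widest differences of these lists. Prkag3, the gamma subunit of AMP-activated kinase known from fast glycolytic muscle, fell by 2.60 ± 0.307 (SE) by limma (adjusted p = 0.00663), from a mean of 4.27 in WT to 1.67 in Smn1deltaSKM mice. Gsk3a and Gsk3b, the kinases that phosphorylate and hold back glycogen synthase, fell, with differences of -2.13 and -1.38 (limma, adjusted p = 0.00680 and 0.0288). Prkar1a, a regulatory subunit of protein kinase A, rose by 2.10 (standard error 0.350, limma, adjusted p = 0.0107), though its other tested probe was not called. Counted apart, the glycolytic enzymes lay below 0 for 11 of 11 genes and 3 fell, Gpi1 by 1.33, Ldha by 0.86 and Pgam2 by 0.86 (limma, adjusted p = 0.0159, 0.0461 and 0.0450), with a median of -0.82.

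**Figure D3:**
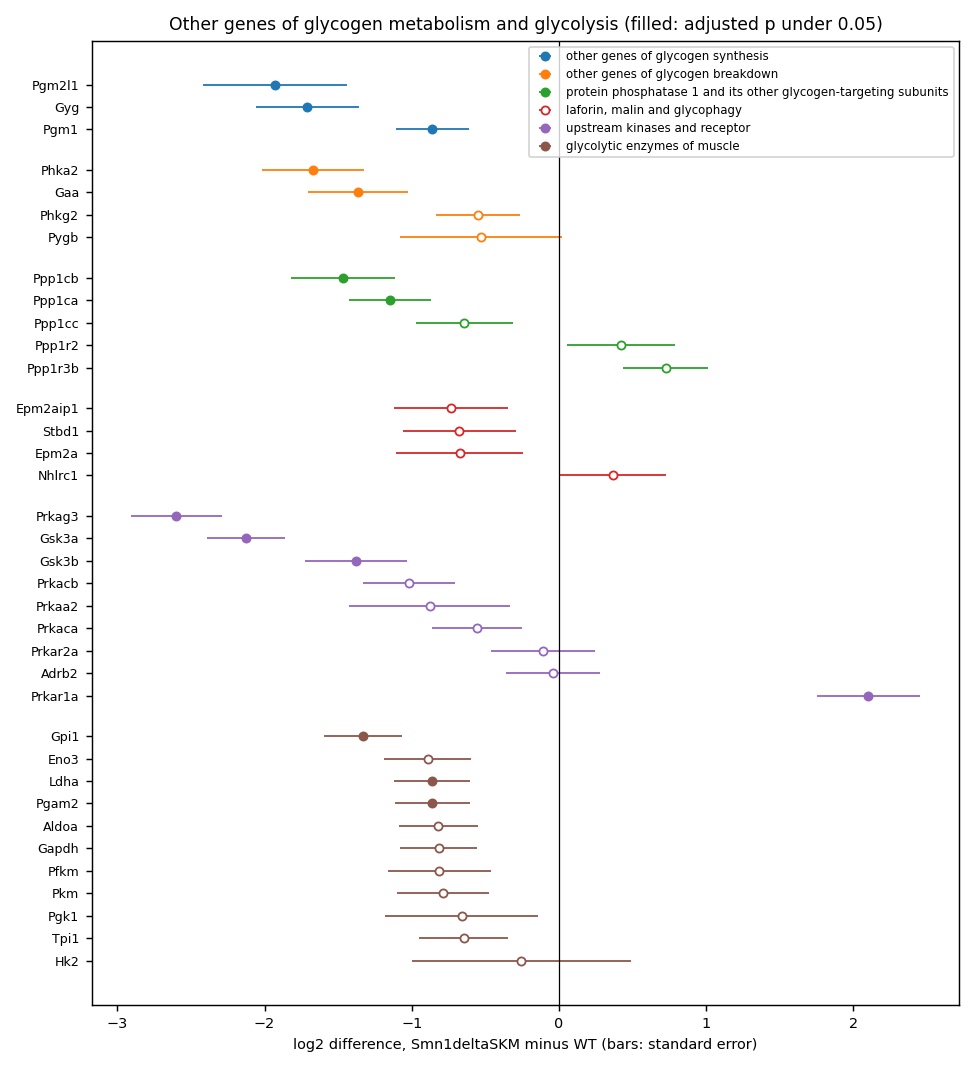
Log2 difference of Smn1deltaSKM minus WT mice (x axis, bars for the standard error) for tested genes of the pathway lists and of glycolysis (y axis, one colour for each list), filled where the adjusted p was under 0.05. Prkag3 at -2.60 and Prkar1a at 2.10 mark the 2 ends.

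Other genes of the fiber moved beside these. The summed level of the 12 fast fiber markers, in multiples of the 75th percentile signal of the array, ran from 2585 to 4576 in WT, from 1931 to 3166 in Smn1deltaSKM and from 2840 to 3695 in Smn1deltaSKM+AFS myofibers, and that of the 7 slow fiber markers from 2.85 to 9.39, from 8.78 to 24.6 and from 8.46 to 45.0. Myh1, the type 2X myosin, rose by 2.20 in Smn1deltaSKM mice (limma, adjusted p = 0.0225) and was higher by 3.45 in Smn1deltaSKM+AFS than in WT mice (adjusted p = 0.0194). The immune cell list, of 5 genes on the array, summed to between 177 and 280 in WT, 171 and 242 in Smn1deltaSKM and 212 and 295 in Smn1deltaSKM+AFS myofibers. The endothelial list of 4 genes ran from 5.19 to 16.1, from 8.42 to 16.2 and from 12.2 to 17.6, and the fibroblast list of 4 from 0.261 to 60.3, from 0.497 to 19.8 and from 0.366 to 16.4, with medians of 0.617, 5.23 and 8.01. The adipocyte list of 3 ran from 0.267 to 0.563, from 0.524 to 1.28 and from 0.524 to 0.75. The groups overlapped in these lists, though the fibroblast and adipocyte medians were lowest in WT. The part of fiber type and of other cells in the glycogen gene differences was not tested.

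The second comparison asked whether the levels differed after transplantation of AFS cells. All 14 member probes were higher in Smn1deltaSKM+AFS than in Smn1deltaSKM mice, by 0.24 to 1.27 with a median of 0.60, but none was called. Over all 22169 probes limma called 0 (0%), the lowest adjusted p being 0.9999, while 712 probes, 2 of them members, had an unadjusted p under 0.05. The median over all probes was 0.06 and over the bright ones 0.19. Most probes lay above 0 as well, with 42.3% of all and 23.0% of the bright ones below it.

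The 2 members were the Gys1 probes. Gys1 at base 2851 lay at 1.00, 2.12 and 2.94 in Smn1deltaSKM myofibers and at 2.15, 3.14 and 5.03 in Smn1deltaSKM+AFS myofibers, of which 5 of 7 lay above the highest untreated one. The mouse means were 1.94, 1.93 and 2.32 untreated and 3.33 and 3.33 treated, a difference of 1.27 with a 95% interval from 0.65 to 1.88 (limma, unadjusted p = 0.00135). The myofibers of treated mouse 1 lay at 3.26, 2.88, 5.03 and 2.15. Within mice the SD of the myofibers was 0.69, and the interval rests on the mouse means alone. Gys1 at base 3483 differed by 1.19 with an interval from 0.08 to 2.30 (unadjusted p = 0.0378), and 4 of 7 treated myofibers lay above the highest untreated one. Ppp1r3c followed with 1.05 and Phkg1 with 0.96 and 0.91. Ugp2 with 0.35 and 0.24 and the internal Gbe1 probe with 0.34 came last. The intervals of all these probes include 0.

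For 6 of the 14 probes both treated mice lay above all 3 untreated ones, against 12.3% of all probes. These were Pygm, both Phkg1 and both Gys1 probes and Ppp1r3c. Within scan day 2, which held both groups, all 14 probes were above 0 with a median of 0.65, and within scan day 1, where each group had 1 mouse and nothing was tested, 12 were above 0 with a median of 0.92. On day 2 slide 4 held 8 untreated and slide 5 held 4 treated myofibers, with 1 of each on slide 3, and on day 1 each group had its own slide, so slide and treatment can hardly be told apart. Without Smn1deltaSKM mouse 1, the lowest mouse for 10 of 14 probes, the median fell to 0.33.

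The third comparison set the treated mice against WT, sharing its samples with the first comparison and the second. No member probe was called, against 7.33% of 22169 probes (4.34% lower and 2.99% higher). By limma 4 member probes had an unadjusted p under 0.05 (Pygm, Phkb at base 3935, Phkg1 at base 1578 and Ppp1r3a). So had 6510 of the 22169 probes. For 8 of the 14 probes both treated mice lay below both WT mice, as for 37% of all probes. Among the synthesis enzymes Gys1 stood at 89.8% and 88.5% of the WT level, Gbe1 at 89.2% at base 2724 and 149% at the internal probe, and Ugp2 at 103% and 88.3%. Pygm stood at 47.1% and Phka1 at 53.3%. The probes of the other kinase subunits were far apart, Phkb at 102% at base 2640 and 53.0% at base 3935, and Phkg1 at 82.3% at base 1571 and 46.8% at base 1578. Of the targeting subunits Ppp1r3a stood at 38.6% and Ppp1r3c at 69.6%. Whether the roles differ was not tested.

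Pygm lay at 6.75, 7.03 and 7.18 in Smn1deltaSKM+AFS myofibers, all 7 below the lowest WT myofiber at 7.39, and the difference was -1.09 with an interval from -1.86 to -0.31 (limma, adjusted p = 0.0819). Ppp1r3a lay at 1.78, 2.79 and 2.91, again with all 7 below the lowest WT myofiber, a difference of -1.37 (adjusted p = 0.103). Without Smn1deltaSKM mouse 1, which enters through the shared spread, 5 member probes were called, those of Pygm, Phka1, Phkb at base 3935, Phkg1 at base 1578 and Ppp1r3a. In that fit 6501 of the 22169 probes were called. Gys1 at base 3483 overlapped WT, at 4.52, 5.79 and 6.34 against 5.41, 5.73 and 6.06, its difference of -0.16 having an interval from -1.37 to 1.05. Of the other glycogen genes Prkag3 (-2.55, limma, adjusted p = 0.0149) and Gsk3a (-1.89, adjusted p = 0.0182) were called lower and Prkar1a (2.18, adjusted p = 0.0236) higher, against 4.02% and 3.29% of 16693 genes.

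Myofibers of the same mouse also differed from each other, and there the members were compared in pairs, grouped by role. After the mean of each mouse was subtracted, the probes of different synthesis genes (Gys1, Gbe1, Ugp2) had a median Pearson's r of 0.59 over 12 pairs and 27 myofibers, from 0.37 to 0.87. Pygm and the phosphorylase kinase genes had a median of 0.28 over 13 pairs, from 0.05 to 0.88, and the 36 pairs across the sets a median of -0.13. Without Smn1deltaSKM mouse 1 (n = 23) the medians were 0.70, 0.53 and -0.17, and in the WT, Smn1deltaSKM and Smn1deltaSKM+AFS myofibers alone the synthesis median was 0.31, 0.57 and 0.80 that of Pygm and the kinase 0.63, 0.26 and 0.04, and that of the pairs across the sets -0.23, -0.02 and -0.50. Under quantile normalization the 3 medians over all myofibers were 0.55, 0.12 and -0.31. Within the breakdown set Phkb had an r between 0.05 and 0.35 with every other gene.

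Pygm and Phka1 had an r of 0.88 over all 27 myofibers, 0.97 in the 8 WT, 0.90 in the 12 Smn1deltaSKM and 0.92 in the 7 Smn1deltaSKM+AFS myofibers, and 0.83 without Smn1deltaSKM mouse 1. Gys1 at base 3483 and Gbe1 at base 2724 had an r of 0.87 over all, 0.81, 0.88 and 0.88 in the groups and 0.91 without that mouse. This value depended on the probe. Over all 27 myofibers the other Gys1 probe had an r of 0.38 with Gbe1 at base 2724. With the internal Gbe1 probe the r was 0.61 for Gys1 at base 3483 and 0.56 for the other Gys1 probe. The Gys1 probes had an r of 0.59 with each other. These points share the array of the fiber, its amplification and its scaling, and the values are given as a description.

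**Figure D4:**
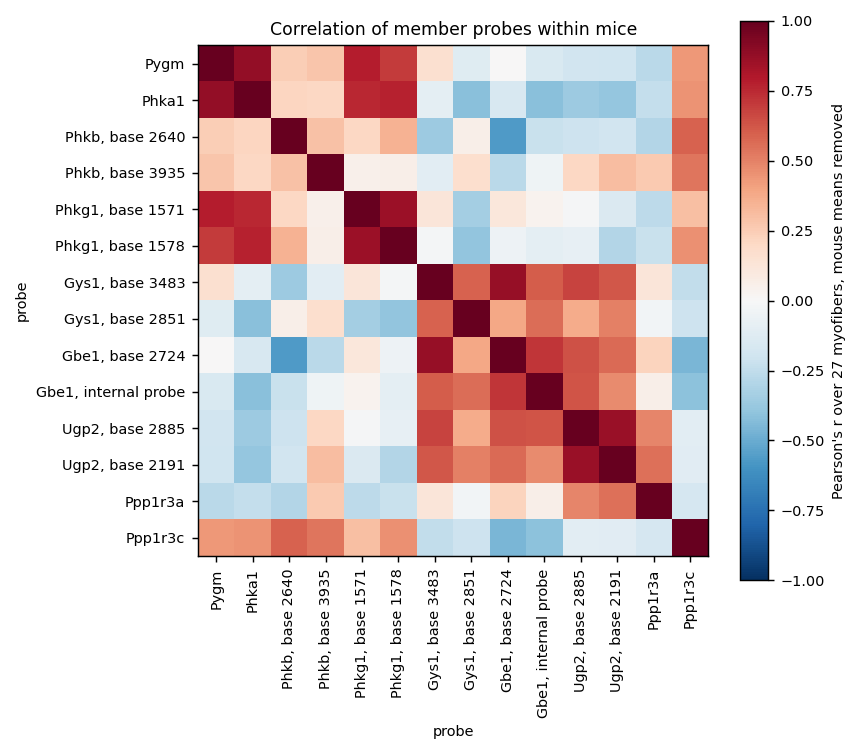
Pearson's r over 27 myofibers between each pair of the 14 member probes (both axes), after the mean of each mouse was subtracted, from blue at -1 to red at 1. Pygm, Phka1 and the Phkg1 probes form one red square and the Gys1, Gbe1 and Ugp2 probes another, with pale or blue fields between them.

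Myh1, the mark of 2X fibers, had a value on 26 arrays. Within mice Gys1 rose with Myh1, with r = 0.68 and 0.69 by its 2 probes. Phka1 went the other way with r = -0.70, as it did in each group (-0.65, -0.56 and -0.91), while Pygm gave -0.28 over all, -0.66 in WT, 0.05 in Smn1deltaSKM and -0.72 in Smn1deltaSKM+AFS myofibers, and -0.53 over all under quantile normalization. Both Gbe1 and both Ugp2 probes had an r between 0.48 and 0.67 with Myh1, and all 5 probes of the kinase genes an r between -0.70 and -0.16. These myofibers share arrays and mice, as above.

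**Figure D5:**
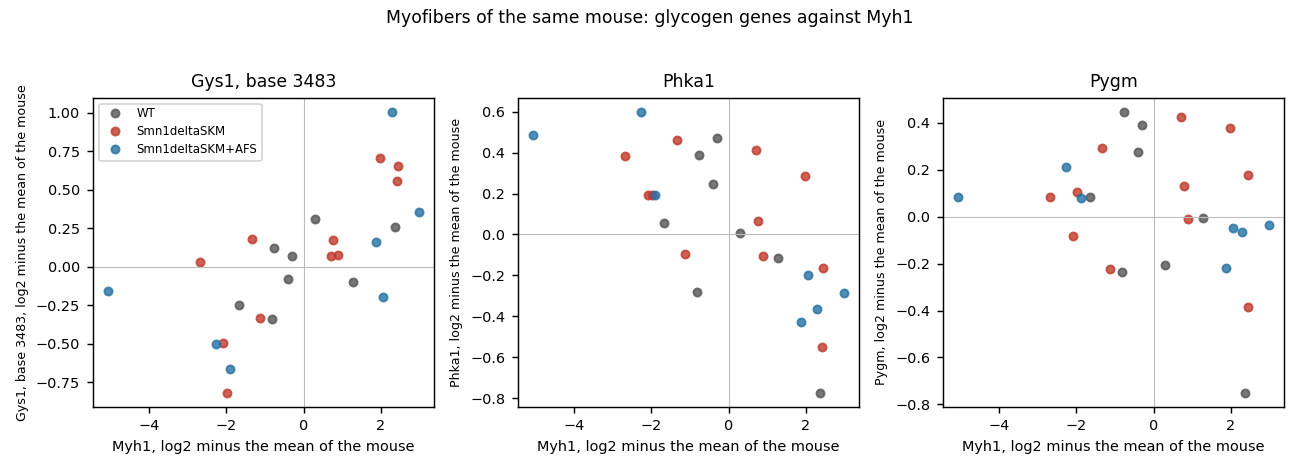
Level of Gys1 at base 3483, Phka1 and Pygm (y axes) against Myh1 (x axis), both as log2 minus the mean of the mouse, with a point for each of the 26 myofibers with a Myh1 value coloured by group. Gys1 climbs with Myh1 (r = 0.68), Phka1 drops (r = -0.70) and Pygm shows a weak slope (r = -0.28).

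The genes most like Pygm among 16692 others, over at least 20 myofibers within mice, were Pgm1 (r = 0.93), Kctd15 (0.93), Tstd2 (0.91), Slc41a3 (0.89) and H6pd (0.89). Those most like Gys1 at base 3483 were Slco3a1 (0.92), Acss1 (0.92), Ndufa8 (0.89), Sdhc (0.89) and Etfdh (0.89). Without Smn1deltaSKM mouse 1 the r of these 10 genes lay between 0.81 and 0.96. Sdhc and Ndufa8 encode parts of respiratory complexes and Etfdh an electron carrier enzyme of the mitochondrion.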

How the data were processed

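RNA of each myofiber was amplified in 18 cycles by whole transcriptome amplification and hybridised to Agilent mouse 8x60K arrays. Per the file headers and labels, the deposited intensity of each spot is the background-subtracted, detrended signal of Agilent Feature Extraction 10.7.3.1, without scaling between arrays. A further table by the authors gives intensities on a linear scale with a like distribution on each array, and served as an alternative. No column of per-sample values was left unassigned.

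Here log2 intensities were reduced by the 75th percentile of the array, and values of spots not found, not well above background or uneven were left out. Probes with values on at least 75% of 27 arrays were kept, 22169 in all. Myofibers were averaged by mouse and 7 mouse means were fitted in 1 model of 3 groups with limma 3.58.1 in R 4.3.3, with Benjamini-Hochberg adjustment over all probes and a threshold of 0.05. The methods' test, SAM over myofibers, was not run, and limma over myofibers was tried instead. The precision is limited by the number of mice. The fit was tested on simulated data. Other alternatives were the scaling, background, filters, random blocks, scan day, left-out mice and mean of probes.

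Named were all member probes, called genes of each list with up to 3 of the widest where fewer were called, and 5 genes most like Pygm and Gys1. The members and lists were chosen with earlier results of these data known. A few genes of the lists are counted but not reported here by name. Old array names were updated through RefSeq accessions.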

Additional observations from a re-analysis of the deposited data

Results flagged for a closer look

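Of 28 checks of groups of 7 or 8 myofibers over the 14 member probes, 1 found a sample far from the others. WT myofiber 8 had a level of 2.93 at the Phkg1 probe at base 1578, the lowest of the 8 WT myofibers. Chance alone marks about 1 in 20 such groups.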

How the results depend on the processing

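In all 21 alternatives to the fit of Smn1deltaSKM against WT, 13 of 14 member probes stayed below 0. The 6 member calls became 2 under quantile normalization, 2 with normexp and 2 in the authors' value table, and 0 to 8 when a mouse was left out. For Smn1deltaSKM+AFS against WT the 0 member calls became 5 with myofibers as replicates, 3 with mouse as a random block and 3 with only the compared groups, and 0 to 5 when a mouse was left out. The 12 calls of other glycogen genes became 6 under quantile normalization, 6 in the authors' table, 21 with myofibers as replicates, 7 with slide as a random block and 0 to 19 when a mouse was left out, and the 3 calls against WT after AFS cells became 15, 7 with mouse as a random block, 9 with only the compared groups and 0 to 10. Over all probes the 4757 calls became 3144 among probes with values on all arrays, 11996 with myofibers as replicates, 7722 and 2319 with mouse and slide as random blocks and 0 to 9711 without a mouse. The 1625 calls of Smn1deltaSKM+AFS against WT became 787 under quantile normalization, 963 in the authors' table, 2458 with all measured signals kept, 1054 among probes on all arrays, 9155, 4448 and 4541 with myofibers, mouse blocks and only the compared groups, 2749 without Smn1deltaSKM myofibers 1 to 3 and 0 to 6501 without a mouse. AFS against Smn1deltaSKM had 0 calls of 22169, and 26 with myofibers as replicates, no member among them. The cause of these shifts was not tested.

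Values with a changed sign were at most 0.24 in size, but the ranges over left-out mice were wider, so some signs depended on single mice. For Smn1deltaSKM+AFS minus Smn1deltaSKM the internal Gbe1 probe gave -0.0377 to 0.5398 when a mouse was left out (lowest without Smn1deltaSKM mouse 2) and -0.24 within scan day 1, where Ugp2 at base 2191 gave -0.0052. For Smn1deltaSKM+AFS minus WT, normexp gave 0.20 for Gbe1 at base 2724, 0.0393 and 0.0324 for Gys1 at bases 3483 and 2851 and 0.10 for Ugp2 at base 2191, and Gys1 at base 3483 stood at 0.0013 in the authors' values. Ugp2 at base 2885 gave -0.0592 with slide as a random block. With a mouse left out, Ugp2 at base 2885 ran from -0.1662 (without AFS mouse 2) to 0.2621, Gbe1 at base 2724 from -0.5609 to 0.2301 and Gys1 at base 3483 from -0.5544 to 0.2424 (both highest without AFS mouse 1), Ppp1r3c from -1.1747 to 0.1272 (without WT mouse 1), and Phkb at base 2640 from -0.1853 (without AFS mouse 1) to 0.2416, with -0.0968 without WT mouse 2. The correlation of Pygm with Myh1 was 0.0501 in Smn1deltaSKM myofibers alone.

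Mice of different groups are different animals and share only a number. With mouse number as a replicate block, 7 member probes and 9 other genes were called for Smn1deltaSKM against WT, and 3086 probes in all, against 0, 3 and 1221 for Smn1deltaSKM+AFS against WT and 0 for the remaining comparison. Same-numbered mice had deviations correlated at 0.154 and 0.0477, 0.30 and 0.189, and -0.0537 in the 3 comparisons.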
